A study of Mus musculus with 13 samples.

Results

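Molecular chaperones of the cytosol and mitochondria, the products of 45 genes of the 55471 in the deposited table, were followed across mouse hearts carrying a cardiac myosin-binding protein C mutation and treated or not with a myosin inhibitor. The genes were chosen by symbol from the heat shock families: 11 of the HSP70 and HSP110 families, 7 for HSP90 and its co-chaperones, 8 J-domain proteins of the cytosol and nucleus, 7 small heat shock proteins, 5 subunits of the chaperonin TRiC, 5 mitochondrial chaperones and the heat shock factors Hsf1 and Hsf2. All 45 matched a gene ID in the table, and all 45 passed the filter on low counts.

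RNA was taken from whole hearts and sequenced after poly(A) selection, with 4 libraries of R502W mice given mavacamten (R502W mavacamten), 4 of untreated R502W mice (R502W control) and 5 of untreated wild-type mice (WT control). R502W is an amino acid change in cardiac myosin-binding protein C, a thick-filament protein of heart muscle encoded by Mybpc3, and mavacamten is a drug that inhibits cardiac myosin. The drug was given in drinking water at 2.5 mg/kg per day for 21 weeks, and both R502W groups carried the mutation. The design text gives an age of 24 weeks for all groups, while the extraction protocol names hearts of 3 and 18 weeks. Zygosity, strain, sex and the time of day at which hearts were collected were not in the labels. Whether the libraries of a group are from different mice is not stated, and p-values therefore reflect only how far these libraries spread, which may be technical. The mutation changes 1 codon, so RNA levels of Mybpc3 do not check the genotype labels.

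HSP70 proteins bind exposed stretches of unfolded proteins and release them in a cycle driven by ATP, which J-domain proteins start and HSP110 proteins, as nucleotide exchange factors, reset. HSP90 and its co-chaperones finish the folding of signalling proteins and, with dedicated partners, of myosin. Small heat shock proteins hold damaged proteins without ATP, and several of them are abundant in heart muscle, where they associate with the sarcomere and the Z-disc. Heat shock factor 1 is the main transcription factor that raises many of these genes after heat or protein damage, and it binds heat shock elements, inverted repeats of the letters GAA.

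Library totals were between 15350622 and 19361103 expected counts. Some libraries stood apart by genes of other tissues or by Bmp10. The summed level of 7 fat markers was 736 CPM (counts relative to the scaled library size) in R502W mavacamten replicate 4, 500 CPM in R502W control replicate 1, and 637 and 744 CPM in WT control replicates 2 and 3, against 4.50 to 203 CPM elsewhere. The 8 lymphocyte and thymus markers summed to 330 CPM in WT control replicate 2 and to at most 23.6 CPM elsewhere. The 4 lung airway markers summed to 140 CPM in R502W mavacamten replicate 1 and to 356 and 562 CPM in WT control replicates 2 and 3, against at most 22.3 CPM in the others. Bmp10, an atrial growth factor, was between 1.57 and 8.33 CPM in R502W mavacamten replicate 3, R502W control replicate 1 and WT control replicate 3, and at least 307.2 CPM in the others. The atrial genes Myl7 and Sln were not low with it. In these libraries, in that order, Myl7 was at 433.7, 611.5 and 1243 CPM, against 286.8 to 1064 CPM in the others. Sln was at 164.1, 248.2 and 456.5 CPM, against 115.6 to 403.8 CPM. The atrial gene Nppa was lowest in R502W mavacamten replicate 3, at 1827 CPM, but not in the others low in Bmp10. The calls were also computed without 5 libraries chosen for other-tissue or interferon genes. They are R502W mavacamten replicates 3 and 4, R502W control replicate 1 and WT control replicates 2 and 3. All 5 were high in fat markers or low in Bmp10, and they are named so below. Interferon genes are not reported here. R502W mavacamten replicate 1, with its lung genes, stayed in that fit and was left out singly. In whole-heart RNA, fewer cells of a type and less RNA per cell cannot be told apart.

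Promoter sequences are shown because heat shock elements are the known binding sites of heat shock factor 1, and members were grouped by them. RefSeq promoter entries on GRCm38.p6 matched 36 of the 45 genes by symbol. Cct4, St13, Hsf1, Hspb2, Hspa9, Hspa8, Cryab, Hsp90ab1 and Hsp90aa1 had no entry. The 250 bases upstream of each listed start were searched on both strands for a pair of inverted repeats, GAANNTTC or TTCNNGAA, and for 3 repeats in a row, GAANNTTC followed by NNGAA or TTCNNGAA followed by NNTTC. Each longer match contains overlapping shorter ones. The Hsph1 window is printed because this gene had the smallest adjusted p of all members, Hspb1 because it has 2 matches and also changed, and Hspa1a because it is the classic heat-inducible HSP70 gene. Capitals mark the GAA and TTC letters of each match, and all are written 5′ to 3′ on the gene's strand. The windows are chr5:149636337-149636586 (minus strand) for Hsph1, chr5:135887669-135887918 (plus strand) for Hspb1 and chr17:34972157-34972406 (minus strand) for Hspa1a.
Hsph1: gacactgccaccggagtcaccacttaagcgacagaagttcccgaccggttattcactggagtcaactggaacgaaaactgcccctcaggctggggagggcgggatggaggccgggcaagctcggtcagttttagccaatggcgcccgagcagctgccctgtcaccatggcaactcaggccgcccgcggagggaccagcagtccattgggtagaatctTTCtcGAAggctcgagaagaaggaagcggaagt
Hspb1: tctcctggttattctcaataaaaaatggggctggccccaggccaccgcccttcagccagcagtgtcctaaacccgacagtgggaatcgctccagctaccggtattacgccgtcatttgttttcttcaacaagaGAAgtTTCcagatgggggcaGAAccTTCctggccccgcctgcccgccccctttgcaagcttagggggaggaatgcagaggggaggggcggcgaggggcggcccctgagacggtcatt
Hspa1a: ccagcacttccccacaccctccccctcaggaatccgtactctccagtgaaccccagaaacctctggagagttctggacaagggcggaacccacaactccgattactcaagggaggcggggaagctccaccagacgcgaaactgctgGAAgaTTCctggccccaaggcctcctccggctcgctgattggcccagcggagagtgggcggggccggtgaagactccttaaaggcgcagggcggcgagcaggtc

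The Hsph1 match ends 25 bases before the listed start of the printed window and 46 bases before its other listed start. It lies inside the Hsph1 gene as annotated by Ensembl. The matches of Hspb1 end 109 and 89 bases before its start, and that of Hspa1a ends 96 bases before its start. Of the members, 13 had more than 1 listed start, and a match at any of them counted. The corresponding window of Hspa1b (chr17:34959239-34959488, minus strand) is identical to that of Hspa1a at 247 of 250 positions and has its match at the same place. The longer form with 3 repeats was found in Dnajb6, Hspd1 and Hspe1. Hspd1 and Hspe1 lie on opposite strands, overlap by 112 bases and are transcribed away from each other. The same element lies upstream of Hspe1 and of the inner listed start of Hspd1. It is inside the annotated Hspd1 gene, and the window of the outer Hspd1 start (chr1:55088244-55088493, minus strand) held no match. The following 30-base windows show it for Hspe1 (chr1:55088053-55088082, plus strand) and Dnajb6 (chr5:29735844-29735873, plus strand), with the pair of shorter matches of Dnaja4 (chr9:54699458-54699487 and chr9:54699496-54699525, plus strand) and the match of Hspb6 (chr7:30553170-30553199, plus strand), members that changed.
Hspe1: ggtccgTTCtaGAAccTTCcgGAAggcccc
Dnajb6: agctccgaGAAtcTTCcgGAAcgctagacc
Dnaja4, farther match: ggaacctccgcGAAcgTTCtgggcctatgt
Dnaja4, nearer match: gcctcctggcgGAAccTTCcgccggcgccg
Hspb6: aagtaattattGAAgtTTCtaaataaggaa

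Of the 36 members with an entry, 15 (41.7%) held the shorter form, against 3932 of all 27025 genes in the promoter table (14.5%). The longer form was in 3 of the 36 (8.33%) and in 139 of all genes (0.514%). Hspd1 and Hspe1 share the same element, which was counted for both genes in either form. Among members that were higher in R502W control than in WT control hearts by edgeR, 4 of 10 with an entry (40%) held the shorter form, and among the others 11 of 26 (42.3%) did. These are matches of letters in a fixed window, not measured binding.

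Levels of the 45 transcripts were set against each other per length, as TPM (reads per exonic length, scaled to a common total). The small heat shock proteins led: Cryab (αB-crystallin) averaged 1292 TPM over the 13 libraries, Hspb7 (a cardiac small heat shock protein) 1077 TPM and Hspb6 600.5 TPM. Hsp90ab1, the constitutive cytosolic HSP90, averaged 768.9 TPM, and Hspa8, the constitutive HSP70, averaged 591.6 TPM. Over all 13 libraries the ranges of neighbours in the order Cryab, Hspb7, Hsp90ab1, Hspb6 and Hspa8 overlapped, though within the WT control libraries Cryab (1056 to 1312 TPM) lay above Hspb7 (748.4 to 982.9 TPM). At the other end were Hsf2 with 2.99 TPM, the HSP70 gene Hspa2 with 5.02 TPM, and the inducible Hspa1b and Hspa1a with 7.16 and 7.40 TPM. Small heat shock proteins together made up 3393 to 4774 TPM in R502W mavacamten, 3953 to 4687 TPM in R502W control and 2850 to 3377 TPM in WT control libraries. By CPM these genes summed to 3225 to 4039 in R502W mavacamten, 3752 to 4390 in R502W control and 2842 to 3513 in WT control. Treated and WT libraries thus overlapped by CPM but not by TPM, and TPM serve here to compare genes, not groups. The 8 TRiC subunits, which form the rings in which actin and tubulin fold, averaged between 30 TPM (Cct3) and 74.4 TPM (Cct2).

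The genotype comparison asked how untreated R502W hearts differed from untreated WT hearts. A gene was called when its adjusted p from edgeR's quasi-likelihood test was under 0.05 over 15000 genes. In R502W control hearts 12 of the 45 chaperone genes (26.7%) were higher than in WT control hearts and none was lower, where 12.4% of all genes tested were called, 8.63% higher and 3.75% lower. The members were chosen with earlier results of these data known, which these shares do not allow for. At an unadjusted p under 0.05, 20 members passed, against 29.1% of all genes. The R502W control libraries all lay above the WT control libraries for 14 members and all below them for 1, Cct5, where 12.3% and 5.45% of all genes did so. The median log2 fold change of the 45 was 0.18, beside -0.01 over all genes, and 35 of the 45 were positive, against 48.9% of all genes. By class, the HSP70 and HSP110 families gave 4 higher of 11, J-domain proteins 3 of 8, small heat shock proteins 3 of 7, HSP90 and its co-chaperones 2 of 7, and TRiC, the mitochondrial chaperones and the heat shock factors 0 of 5, 0 of 5 and 0 of 2. DESeq2 called the same 12, and also Hspa8 as higher and Cct4 and Cct5 as lower. Among members of the classes without an edgeR call, 1 TRiC gene, no mitochondrial gene and 1 heat shock factor passed an unadjusted p of 0.05.

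**Figure D1:**
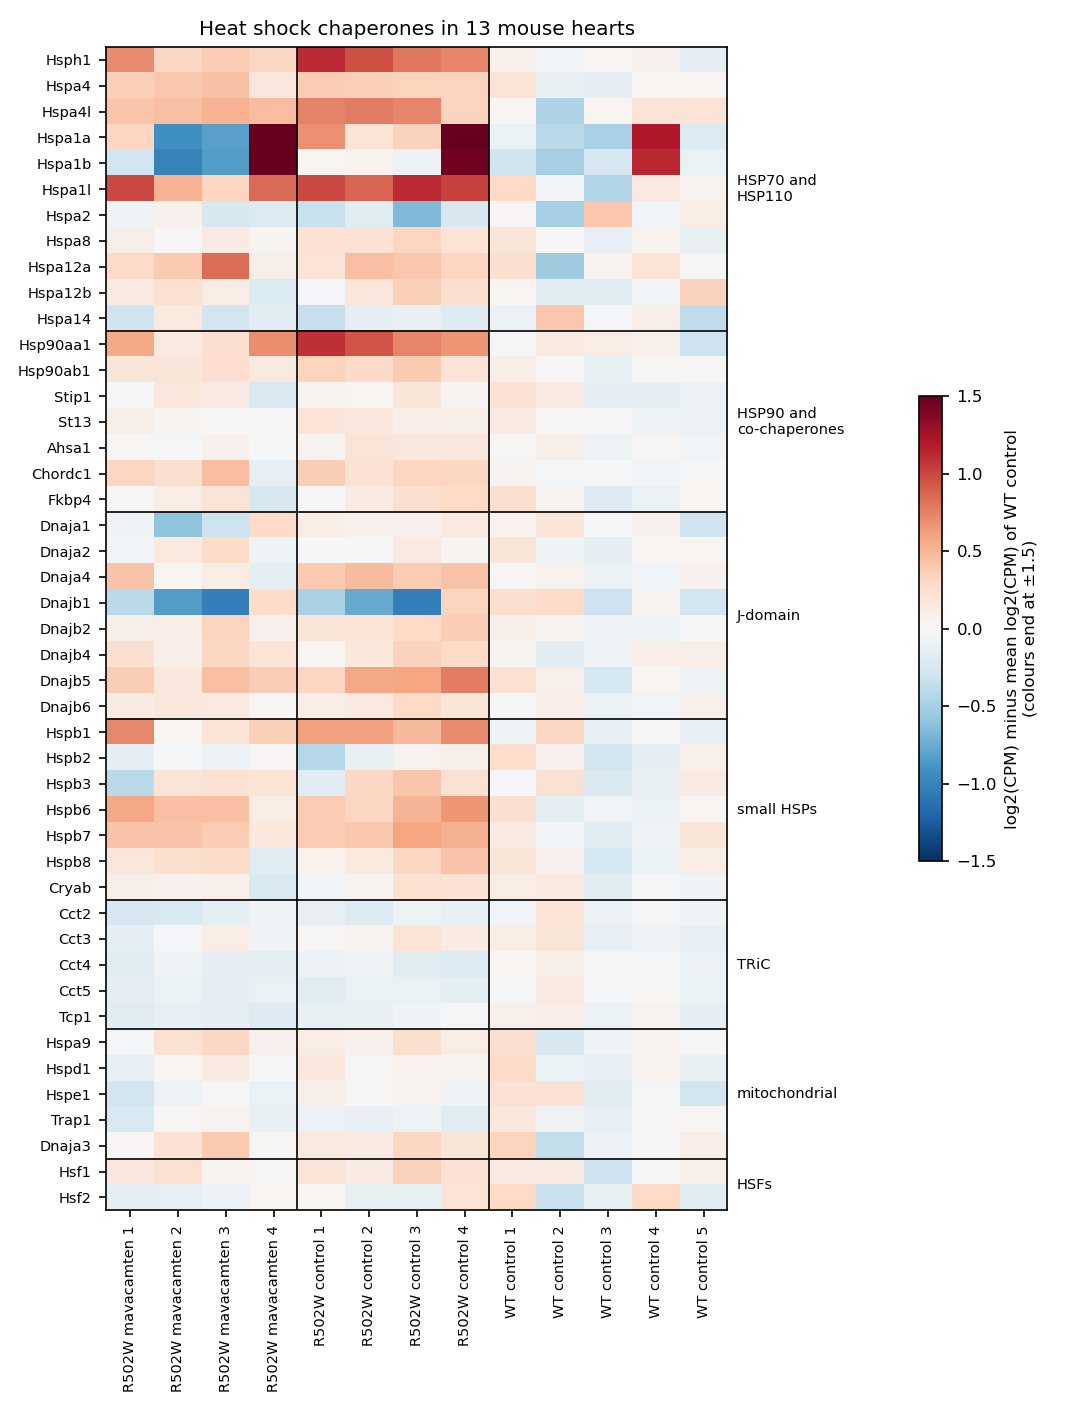
Each of the 45 chaperone genes (rows, by class) in each of the 13 libraries (columns), coloured by log2 CPM minus the mean log2 CPM of the WT control libraries, with colours ending at ±1.5. Hsph1, Hspa1l and Hsp90aa1 are red across R502W control libraries, TRiC genes stay pale, and Hspa1a and Hspa1b are dark red in replicate 4 of each group.

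All 3 HSP110 genes among the members were called higher in R502W control than in WT control hearts, Hspa4 less securely than the others. Hsph1 (chr5:149614287-149636376, GRCm38), the heat-inducible HSP110, had 53.35, 40.54, 42.42 and 40.5 CPM in R502W mavacamten, 71.2, 63.42, 56.37 and 54.17 CPM in R502W control, and 34.46, 31.86, 33.32, 34.26 and 29.81 CPM in WT control libraries. The 3 groups did not overlap: every untreated R502W library was above every treated one, and every treated one was above every WT library. In R502W control hearts Hsph1 was 1.87-fold higher than in WT control hearts, or 0.90 ± 0.10 on the log2 scale (± SE; edgeR adjusted p = 0.000209). Hspa4l (chr3:40744495-40796103), an HSP110 relative abundant in testis, had 63.42, 65.26, 68.2 and 65.43 CPM in R502W mavacamten, 79.43, 81.31, 79.33 and 60.23 CPM in R502W control, and 48.76, 34.44, 48.65, 54.62 and 54.83 CPM in WT control libraries. R502W control replicate 4 was the low one of its group, and no R502W library overlapped WT. Hspa4l rose by 0.64 ± 0.13 on the log2 scale in R502W control against WT control (edgeR adjusted p = 0.00644), and 0.37 once a trend with transcript length was removed (adjusted p = 0.0103). Hspa4 (chr11:53259814-53300457), the constitutive HSP110, had 161.8, 167.5, 171.2 and 142.2 CPM in R502W mavacamten, 164.9, 161.6, 158.7 and 159.7 CPM in R502W control, and 144.8, 116.7, 113.8, 129 and 129.3 CPM in WT control libraries. The 4 R502W control values lay within a narrow band above all WT values, while R502W mavacamten replicate 4 fell inside the WT range. Its log2 fold change was 0.35 ± 0.08 in R502W control against WT control (edgeR adjusted p = 0.0155), with 0.32 and an adjusted p of 0.0602 without R502W control replicate 2.

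Among the HSP70 genes proper only Hspa1l was called. Hspa1l (chr17:34972703-34979285) lies beside Hspa1a and is best known as a testis HSP70. It had 12.27, 8.88, 7.72 and 11.14 CPM in R502W mavacamten, 12.28, 11.34, 13.45 and 12.58 CPM in R502W control, and 7.63, 6, 4.53, 6.82 and 6.43 CPM in WT control libraries. All R502W control libraries and all R502W mavacamten libraries were above all WT libraries, though R502W mavacamten replicate 3 was above the highest WT library by a small margin. Hspa1l rose by 0.98 ± 0.16 on the log2 scale in R502W control against WT control (edgeR adjusted p = 0.00207), the largest value of the 45. An antisense gene, Gm10501, overlaps Hspa1l by 2387 bases and the sources used here do not give the strand setting of the counting, so the reads of the pair may not be fully separated. Of the testis germ cell genes Ddx4, Tnp1, Prm1 and Sycp3, Tnp1 and Prm1 were at 0 in all libraries and the 4 summed to 0.71 to 2.38 CPM in R502W mavacamten, 0.52 to 2.22 CPM in R502W control and 0.07 to 1.45 CPM in WT control libraries.

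Hspa8, the constitutive HSP70, had 1243, 1165, 1271 and 1194 CPM in R502W mavacamten, 1359, 1349, 1455 and 1340 CPM in R502W control, and 1316, 1164, 1070, 1210 and 1082 CPM in WT control libraries. R502W control libraries did not overlap either other group, yet the log2 fold change of 0.24 ± 0.08 against WT control did not pass (edgeR adjusted p = 0.0729). The other HSP70 genes, Hspa2, Hspa12a, Hspa12b and Hspa14, had log2 fold changes between -0.37 and 0.32 in R502W control against WT control, with overlapping groups, and none was called. Hspa14 shares 8264 bases on the same strand with Gm45902, and its reads could be split between them.

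The strongly heat-inducible pair Hspa1a and Hspa1b did not pass the test, and 1 library of each group stood far above the rest. Hspa1a (chr17:34969190-34972156) had 7.203, 3.03, 3.26 and 41.53 CPM in R502W mavacamten, 9.21, 6.61, 7.31 and 23.62 CPM in R502W control, and 5.35, 4.32, 4.11, 13.17 and 4.98 CPM in WT control libraries. Replicate 4 was the highest library in every group. It was also the highest of its group for the stress-induced transcription factor gene Atf3, at 22.71 CPM in R502W mavacamten, 18.85 CPM in R502W control and 6.66 CPM in WT control libraries, and for Jun, at 105, 100.3 and 66.11 CPM in these groups. No other immediate early gene of the list peaked in replicate 4 of every group. Fos, Fosb, Junb, Egr1, Ier2 and Zfp36 were highest in replicate 1 of both R502W groups. Egr1 was at 114 CPM in R502W mavacamten replicate 1 and 152.6 CPM in R502W control replicate 1. In WT control, Jun was nearly as high in replicate 1 (65.11 CPM). The part of these library differences in the results was not tested. Hspa1b (chr17:34956436-34959238), like Hspa1a, was highest in replicate 4 of every group, with 5.40, 3.28, 3.68 and 36.34 CPM in R502W mavacamten, 6.73, 6.84, 6.19 and 18.07 CPM in R502W control, and 5.35, 4.68, 5.55, 14.48 and 6.18 CPM in WT control libraries. The log2 fold change in R502W control against WT control was 0.87 ± 0.70 for Hspa1a (edgeR adjusted p = 0.443) and 0.38 ± 0.66 for Hspa1b (adjusted p = 0.742). Both SEs are several times the median SE of the members, 0.10. The genes are near-identical copies, all 13 libraries held fractional counts for each, and their separate values are uncertain. Taken as a share of HSP70 transcripts per length with Hspa8, the pair made up 1.48%, 0.802%, 0.809% and 8.85% in R502W mavacamten, 1.71%, 1.47%, 1.36% and 4.42% in R502W control, and 1.20%, 1.14%, 1.33%, 3.30% and 1.52% in WT control libraries. Outside replicate 4, the share stayed under 2% in each library.

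**Figure D2:**
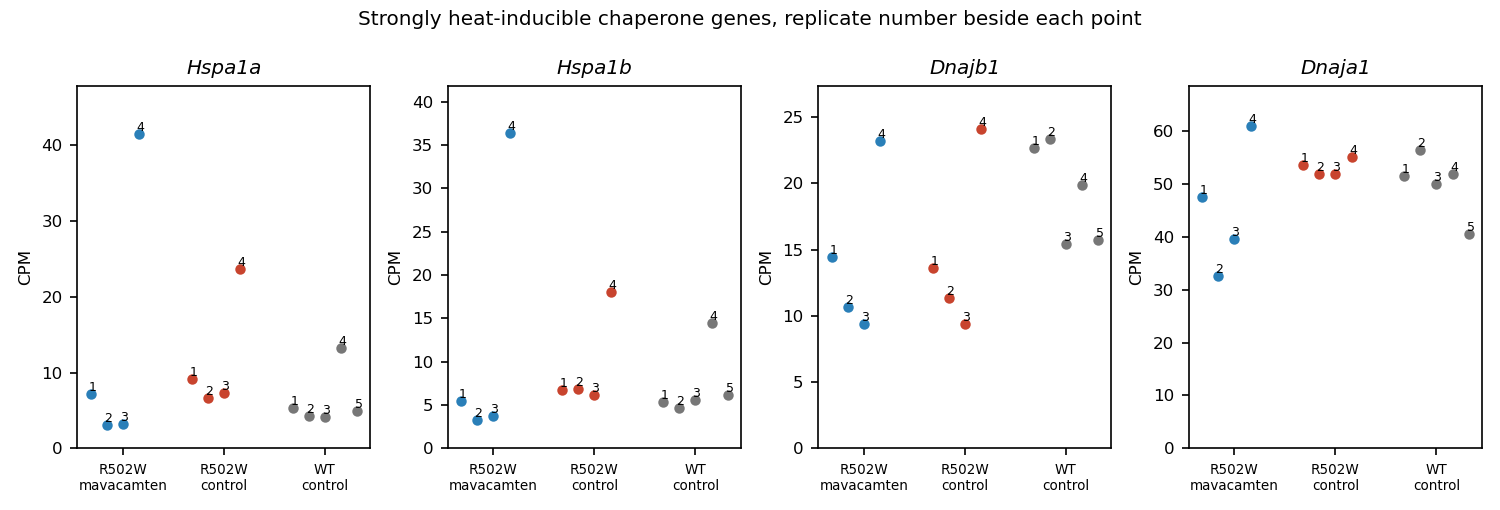
CPM of Hspa1a, Hspa1b, Dnajb1 and Dnaja1 in each library, with replicate numbers beside the points. Replicate 4 is highest in each group for Hspa1a and Hspa1b, at 41.53, 23.62 and 13.17 CPM of Hspa1a in R502W mavacamten, R502W control and WT control.

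The HSP90 paralogs both rose, the inducible one more. Hsp90aa1 (chr12:110690605-110702728), the inducible cytosolic HSP90, had 154.1, 114.2, 122.5 and 168.2 CPM in R502W mavacamten, 221.2, 199.2, 172.4 and 164.4 CPM in R502W control, and 102.5, 115, 112, 109.1 and 83.82 CPM in WT control libraries. Every R502W control library was above every WT library, and R502W mavacamten replicate 2 lay inside the WT range. Hsp90aa1 rose by 0.86 ± 0.13 on the log2 scale in R502W control against WT control (edgeR adjusted p = 0.00158). Hsp90ab1 (chr17:45567775-45573271), the constitutive form, had 1146, 1152, 1207 and 1116 CPM in R502W mavacamten, 1271, 1237, 1325 and 1162 CPM in R502W control, and 1071, 1019, 937.8, 1023 and 1012 CPM in WT control libraries. Both R502W groups were above WT without overlap. For Hsp90ab1 the log2 fold change was 0.30 ± 0.07 in R502W control against WT control (edgeR adjusted p = 0.0178), and the call was lost without R502W control replicate 1, 2 or 3, with values of 0.30, 0.28 and 0.28. Hsp90aa1 made up 9.30%, 7.03%, 7.18% and 10.3% of the TPM of the pair in R502W mavacamten, 11.7%, 10.9%, 9.03% and 9.74% in R502W control, and 6.81%, 7.93%, 8.35%, 7.53% and 5.94% in WT control libraries. The R502W control shares were all above the WT shares.

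None of the HSP90 co-chaperones among the members was called. Chordc1, a zinc-binding HSP90 partner, had 28.23 to 31.29 CPM in R502W control libraries and 23.51 to 24.93 CPM in WT control libraries without overlap, and its log2 fold change of 0.31 ± 0.10 fell just short of a call (edgeR adjusted p = 0.0523). It was called in the fit of R502W control and WT control alone and in the fit without R502W mavacamten replicate 4. Stip1, which links HSP70 to HSP90, the HSP70-interacting protein gene St13, the HSP90 ATPase activator gene Ahsa1 and the immunophilin gene Fkbp4 had log2 fold changes between 0.07 and 0.17, with overlapping groups.

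Of the J-domain proteins, Dnajb5, Dnaja4 and Dnajb2 were called. Dnajb5 (chr4:42949814-42959425), a J-domain protein known to bind class II histone deacetylase in heart muscle, had 61.96, 53.35, 65.43 and 61.64 CPM in R502W mavacamten, 59.83, 71.7, 72.13 and 81.36 CPM in R502W control, and 56.02, 50.4, 39.78, 48.95 and 45.5 CPM in WT control libraries. R502W control was above WT in every library, by 0.57 ± 0.11 on the log2 scale (edgeR adjusted p = 0.00538). Dnaja4 (chr9:54698873-54716315), a J-domain co-chaperone of HSP70, had 123.1, 93.32, 99.14 and 83.54 CPM in R502W mavacamten, 120.5, 127.3, 118.8 and 122.8 CPM in R502W control, and 92.68, 94.99, 85.35, 89.19 and 95.36 CPM in WT control libraries. The R502W control values were tight and clear of WT, and the treated libraries spread from below the WT range to the R502W control range. For Dnaja4 the log2 fold change was 0.42 ± 0.09 in R502W control against WT control (edgeR adjusted p = 0.0129), and without R502W control replicate 2 it was 0.37 (adjusted p = 0.0598). Dnajb2 (chr1:75236406-75245692), which passes HSP70 clients to the proteasome, had 64.66, 65.06, 76.69 and 63.75 CPM in R502W mavacamten, 69.31, 70.48, 75.17 and 78.41 CPM in R502W control, and 64.67, 62.58, 58.79, 58.08 and 60.76 CPM in WT control libraries. R502W control libraries lay above the WT range, by the smallest fold of the 12 called members. Its log2 fold change was 0.27 ± 0.07 (edgeR adjusted p = 0.0321), and the call was lost in 8 of 13 fits that left out 1 library, namely R502W mavacamten replicate 1, 2 or 4, R502W control replicate 2, 3 or 4, or WT control replicate 3 or 4, with values of 0.23 to 0.26.

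Dnajb1, the J-domain partner of inducible HSP70, went in the other direction without passing the test. It had 14.41, 10.68, 9.42 and 23.2 CPM in R502W mavacamten, 13.59, 11.34, 9.396 and 24.13 CPM in R502W control, and 22.66, 23.34, 15.45, 19.88 and 15.69 CPM in WT control libraries. In both R502W groups replicates 1 to 3 were below every WT library and replicate 4 was above or near the highest. Over all libraries the log2 fold change in R502W control against WT control was -0.41 ± 0.29 (edgeR adjusted p = 0.38); with replicate 4 of each group left out, a choice made after the data were seen, Dnajb1 was called lower. The remaining members Dnaja1, Dnaja2, Dnajb4 and Dnajb6 had log2 fold changes of 0.04 to 0.21 and were not called.

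Hspb1, Hspb7 and Hspb6 were the small heat shock proteins called, each expressed in muscle. Hspb1 (chr5:135887919-135889563), HSP27 in human nomenclature, had 209.9, 130.6, 146 and 163.9 CPM in R502W mavacamten, 195.4, 195.5, 179.3 and 208.5 CPM in R502W control, and 122.2, 158.9, 117.1, 127.5 and 117.8 CPM in WT control libraries. R502W control libraries were all above WT, and treated libraries spread over both ranges. Hspb1 rose by 0.60 ± 0.13 on the log2 scale in R502W control against WT control (edgeR adjusted p = 0.0101). Hspb7 (chr4:141420779-141425311), a cardiac small heat shock protein that binds filamin C, had 1618, 1629, 1575 and 1344 CPM in R502W mavacamten, 1566, 1601, 1822 and 1748 CPM in R502W control, and 1315, 1170, 1067, 1144 and 1366 CPM in WT control libraries. R502W control did not overlap WT, and of the treated libraries replicate 4 lay inside the WT range. Its log2 fold change was 0.47 ± 0.10 (edgeR adjusted p = 0.00834). Hspb6 (chr7:30552178-30555443), also known as HSP20, had 828.4, 756.2, 757.4 and 600.2 CPM in R502W mavacamten, 722.3, 688.1, 786 and 875.7 CPM in R502W control, and 656.9, 505.4, 536.4, 517.1 and 566.1 CPM in WT control libraries. R502W control again cleared the WT range. Its log2 fold change was 0.47 ± 0.11 (edgeR adjusted p = 0.0171), and the call was lost without R502W control replicate 3 (0.46, adjusted p = 0.0511) or replicate 4 (0.40, adjusted p = 0.0529).

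Cryab, the most abundant member per length, had 972.1, 956.8, 962.4 and 778.4 CPM in R502W mavacamten, 892.3, 937.2, 1070 and 1065 CPM in R502W control, and 990.9, 1009, 807.6, 896.2 and 884.5 CPM in WT control libraries. The 3 groups overlapped, and the log2 fold change in R502W control against WT control was 0.11 ± 0.10 (edgeR adjusted p = 0.492). Cryab and its neighbour Hspb2 overlap by 1030 bases on opposite strands, and Hspb2 held 31.55 to 51.1 CPM over all libraries. Hspb2, the muscle gene Hspb3 and Hspb8, the partner of Bag3 in the clearance of damaged sarcomere proteins, had log2 fold changes of -0.10, 0.21 and 0.23 and were not called.

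**Figure D3:**
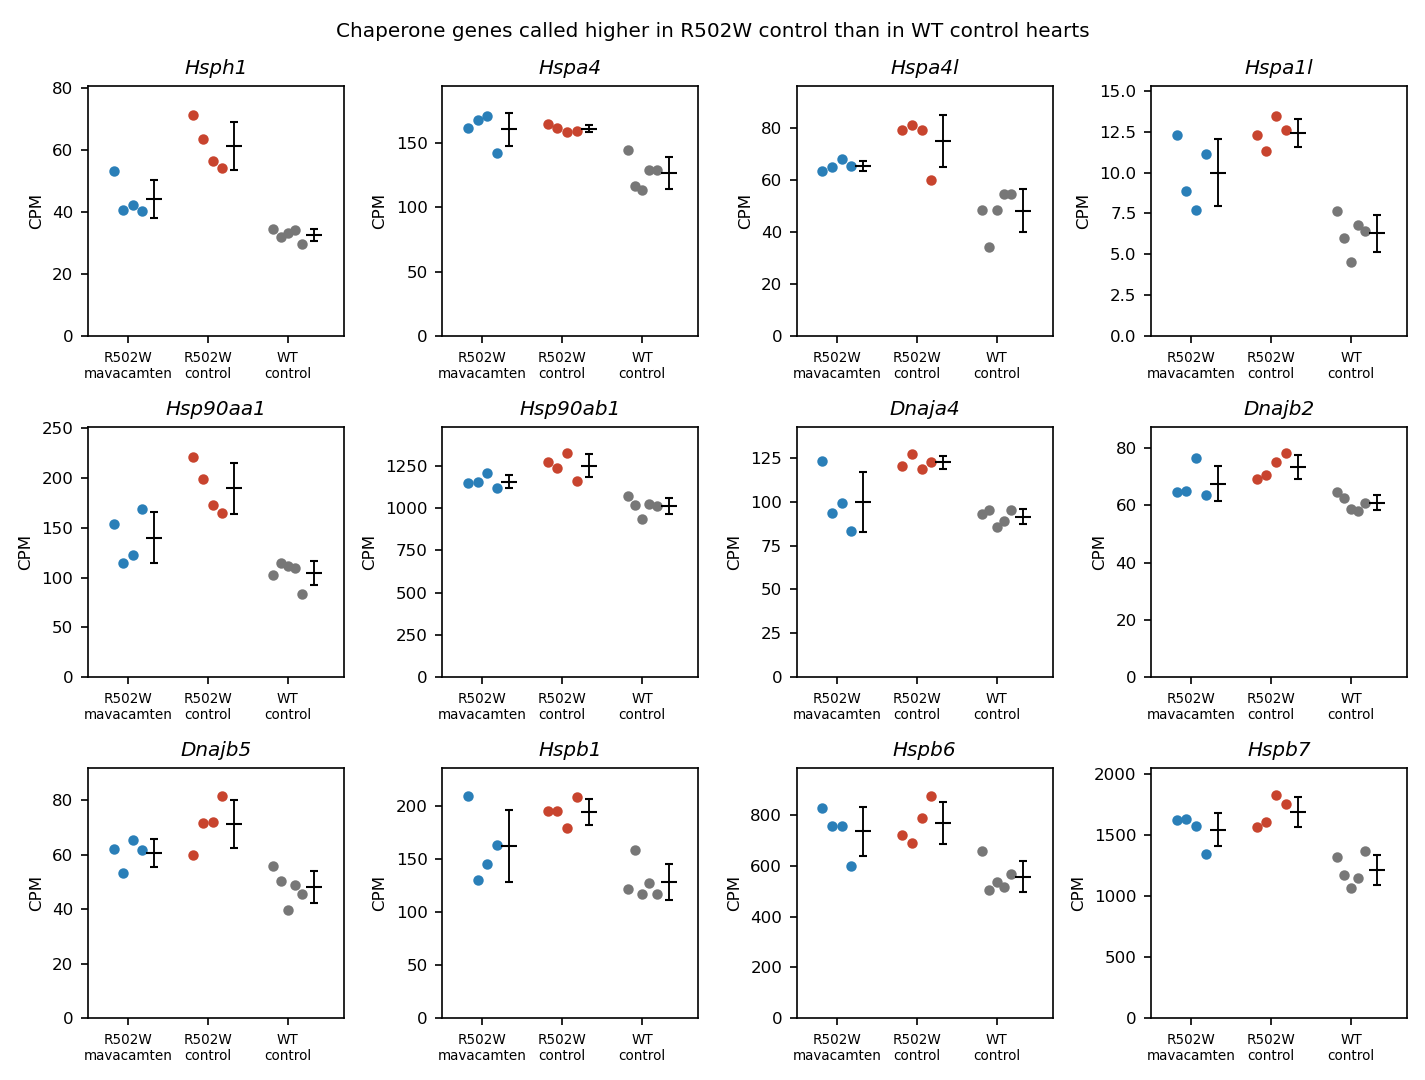
CPM of the 12 chaperone genes called higher in R502W control than in WT control hearts, one point per library with mean ± SD beside each group (n = 4, 4 and 5). R502W control points lie above all WT control points in each panel, and R502W mavacamten points of Hsph1 lie between the other groups.

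TRiC subunits, mitochondrial chaperones and the heat shock factors gave no call in any comparison by edgeR. The 5 TRiC members Cct2, Cct3, Cct4, Cct5 and Tcp1 had log2 fold changes of -0.14 to 0.09 in R502W control against WT control. Cct5 had 84.98 to 88.28 CPM in R502W control and 88.55 to 103.7 CPM in WT control libraries, which did not overlap. DESeq2 called Cct4 and Cct5 lower. Hspd1 (chr1:55077835-55088243), the mitochondrial HSP60, had 248.2, 276, 295.9 and 270.1 CPM in R502W mavacamten, 303.2, 268.6, 281.5 and 278.8 CPM in R502W control, and 329.6, 253.6, 248.1, 280.2 and 249.9 CPM in WT control libraries. Its groups overlapped, with a log2 fold change of 0.06 ± 0.09 in R502W control against WT control (edgeR adjusted p = 0.73). Its co-chaperonin Hspe1, the mitochondrial HSP70 gene Hspa9, the mitochondrial HSP90 gene Trap1 and the mitochondrial J-domain gene Dnaja3 had log2 fold changes between -0.12 and 0.17. Hsf1 (chr15:76477422-76501913) had 30.5, 32.18, 28.4 and 27.85 CPM in R502W mavacamten, 31.35, 29.96, 34.77 and 31.95 CPM in R502W control, and 29.99, 30, 22.15, 26.81 and 28.93 CPM in WT control libraries. The lowest R502W control library was just below the highest WT library, and the log2 fold change was 0.22 ± 0.09 (edgeR adjusted p = 0.144); that of Hsf2 was -0.01 ± 0.13.

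The 12 calls held unequally when libraries were left out. Without the 5 libraries high in fat markers or low in Bmp10, 7 of the 12 remained (Hsph1, Hspa4l, Hspa1l, Hsp90aa1, Dnaja4, Dnajb5 and Hspb1), and without replicate 4 of each group 4 remained (Hsph1, Hspa4l, Hspa1l and Hsp90aa1). The log2 fold change of Hsph1 was 0.79 (edgeR adjusted p = 0.0035) and 0.94 (adjusted p = 0.00268) in these fits, that of Hsp90aa1 was 0.83 and 0.90, that of Hspa1l 0.82 and 0.97, and that of Hspa4l 0.45 and 0.74. The calls lost without the 5 libraries were those of Hspa4 (0.22, adjusted p = 0.10), Hsp90ab1 (0.23, adjusted p = 0.172), Dnajb2 (0.26, adjusted p = 0.0609), Hspb6 (0.41, adjusted p = 0.0702) and Hspb7 (0.41, adjusted p = 0.0563). Without replicate 4 of each group these 5 were lost too, as were Dnaja4 (0.37, adjusted p = 0.0567), Dnajb5 (0.47, adjusted p = 0.0511) and Hspb1 (0.52, adjusted p = 0.0763). Every value stayed positive. In the 13 fits that left out 1 library each, between 8 and 13 members were called higher, and Hsph1, Hspa4l, Hspa1l, Hsp90aa1, Dnajb5, Hspb1 and Hspb7 were called in all 13.

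Circadian and immediate early genes also differed between the same groups. Of 15 clock genes, 3 were higher and 11 lower in R502W control than in WT control hearts, and the 15 summed to 536 to 613 CPM in R502W mavacamten, 597 to 668 CPM in R502W control and 900 to 1140 CPM in WT control libraries. The clock gene Dbp was at 30.71 to 52.71 CPM in R502W mavacamten, 32.46 to 58.16 CPM in R502W control and 152.8 to 203.9 CPM in WT control libraries. Several heat shock genes are known to cycle over the day in mouse tissues, and the part of the clock difference in these results was not tested. Of 10 immediate early genes 1 was higher (Fos) and 1 lower (Ier3), and the 10 summed to 169 to 415 CPM in R502W mavacamten, 216 to 475 CPM in R502W control and 208 to 248 CPM in WT control libraries. Among cell type markers, 1 of 10 cardiomyocyte (Ryr2), 2 of 8 endothelial (Kdr and Cldn5), 2 of 8 fibroblast (Col1a1 and Col3a1) and 2 of 8 mural genes (Cspg4 and Notch3) were higher in R502W control hearts. Of all genes, 8.63% were called higher. The log2 fold change was positive for 4 of 10 cardiomyocyte, 7 of 8 endothelial, 6 of 8 fibroblast and 4 of 8 mural genes. In that order the medians were -0.04, 0.33, 0.43 and 0.01. The lung airway genes that were tested, Scgb1a1 and Cyp2f2, were called lower. The atrial, macrophage, lymphocyte and thymus, fat and erythroid lists gave no call. The cardiomyocyte genes summed to 60800 to 84000 CPM in R502W mavacamten, 63900 to 73200 CPM in R502W control and 48400 to 70100 CPM in WT control libraries. The endothelial genes summed to 702 to 960 CPM in R502W mavacamten, 915 to 1050 CPM in R502W control and 643 to 818 CPM in WT control libraries. The sums of the fibroblast genes were 1290 to 1740 CPM in R502W mavacamten, 1520 to 1790 CPM in R502W control and 1120 to 1660 CPM in WT control libraries, and those of the mural genes 747 to 1110, 717 to 991 and 598 to 1080 CPM in R502W mavacamten, R502W control and WT control libraries. Their part in the chaperone results was not tested.

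The treatment comparison asked how mavacamten changed R502W hearts. No member was called by edgeR or by DESeq2, where edgeR called 0 of the 15000 genes (0%). At an unadjusted p under 0.05, 3 of the 45 members passed, against 3.5% of all genes. Their median log2 fold change was -0.09, beside 0.00 over all genes, and 11 of 45 were positive, against 50.8% of all genes. The treated libraries lay all below the untreated R502W libraries for 3 members (Hsph1, Hspa8 and Tcp1) and all above them for none, where 1.58% and 1.29% of all genes did so (2.87% in either direction). The treatment and genotype comparisons share the R502W control libraries, and their values are given side by side without a correlation.

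The members with the smallest p under treatment were Hsph1, Hsp90aa1 and Dnaja4. Hsph1 averaged 44.2 ± 6.16 CPM in R502W mavacamten and 61.3 ± 7.69 CPM in R502W control libraries (SD, n = 4 each), and treated replicate 1, at 53.35 CPM, was just under the lowest untreated library. Its log2 fold change was -0.47 ± 0.11 (edgeR unadjusted p = 0.00067, adjusted p = 1). Both genes that follow had overlapping groups. Hsp90aa1 averaged 139.7 ± 25.6 CPM in R502W mavacamten and 189.3 ± 26.0 CPM in R502W control libraries, overlapping in treated replicate 4, with a log2 fold change of -0.44 ± 0.14 (edgeR unadjusted p = 0.00748, adjusted p = 1). Dnaja4 averaged 99.8 ± 16.8 CPM in R502W mavacamten and 122.4 ± 3.69 CPM in R502W control libraries, overlapping in treated replicate 1, with a log2 fold change of -0.29 ± 0.10 (edgeR unadjusted p = 0.0109, adjusted p = 1). In all 3 the treated mean lay between those of R502W control and WT control libraries. For the other called members of the genotype comparison the log2 fold change under treatment was -0.31 ± 0.17 for Hspa1l, -0.26 ± 0.14 for Hspb1, -0.23 ± 0.11 for Dnajb5, -0.20 ± 0.13 for Hspa4l, -0.13 ± 0.10 for Hspb7, -0.12 ± 0.08 for Dnajb2, -0.11 ± 0.08 for Hsp90ab1, -0.06 ± 0.12 for Hspb6 and -0.01 ± 0.09 for Hspa4. None of these passed an unadjusted p of 0.05, which does not show that the drug left them as they were. The median SE of the members was 0.11 in this comparison.

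**Figure D4:**
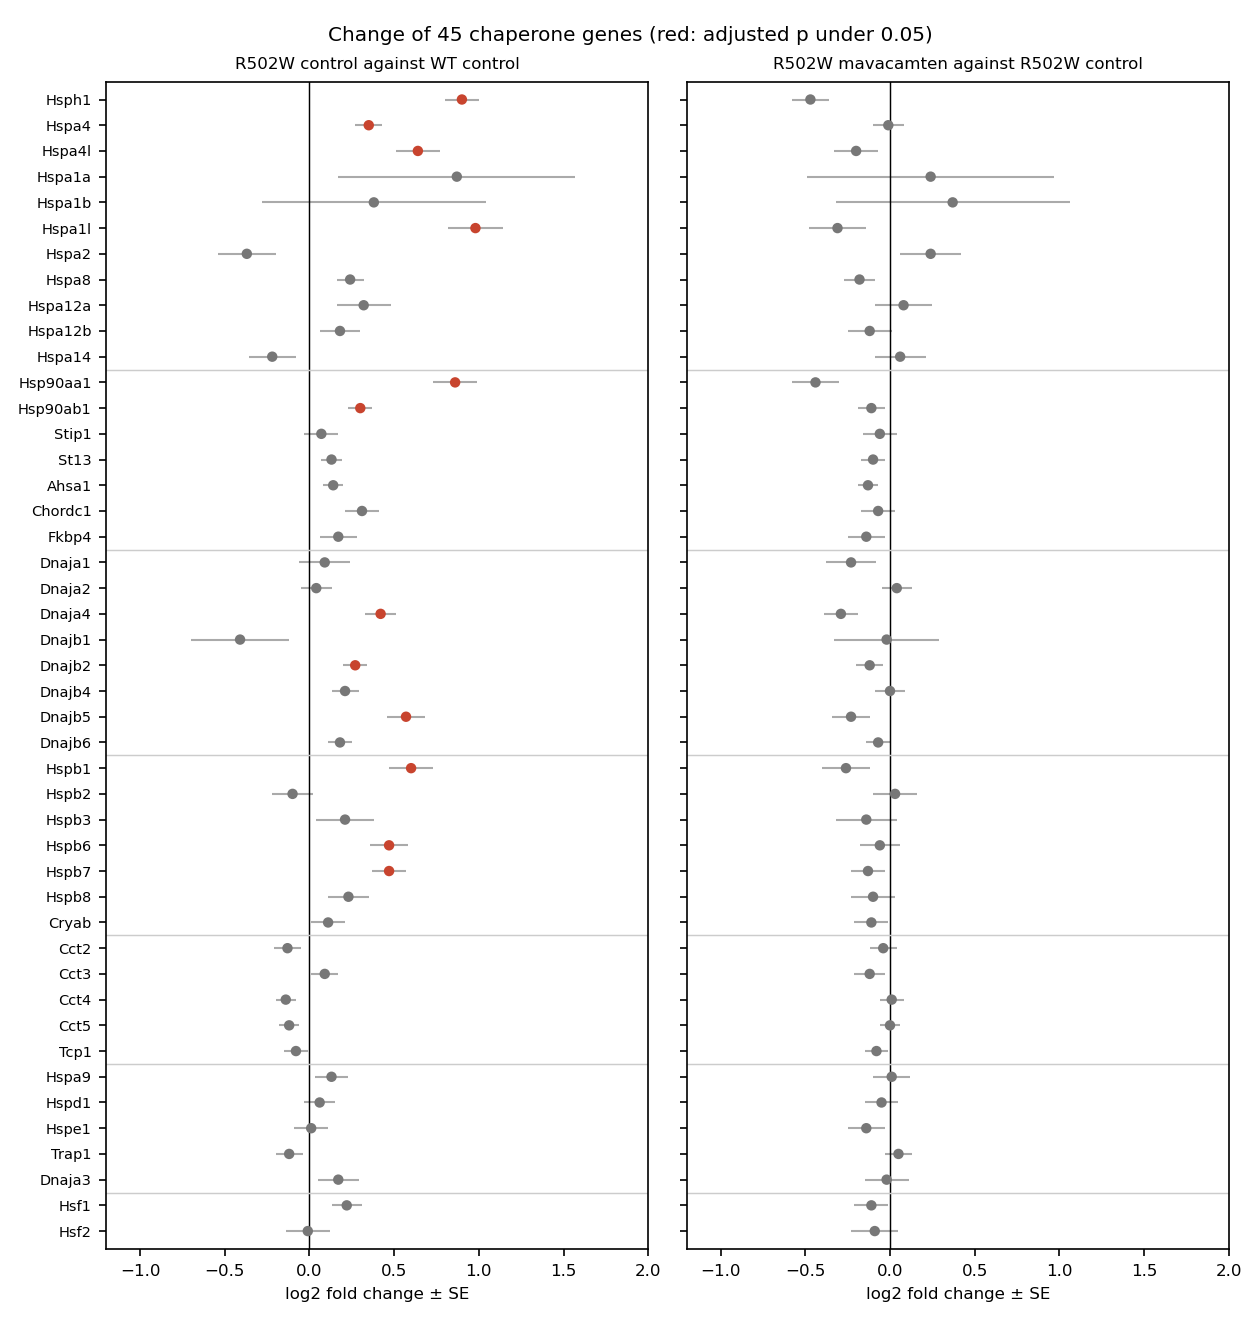
Log2 fold change ± SE (edgeR) of the 45 chaperone genes in R502W control against WT control (left) and R502W mavacamten against R502W control (right), with called genes in red. The left panel has 12 called genes, all positive, and the right panel has none, with Hsph1 lowest at -0.47.

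The spread within groups differed between members. The median coefficient of variation of the 45 genes was 9.63% in R502W mavacamten, 6.14% in R502W control and 11.6% in WT control libraries. It exceeded 20% for 7 members in R502W mavacamten (Hspa1a, Hspa1b, Hspa1l, Hspa12a, Dnaja1, Dnajb1 and Hspb1), for 3 in R502W control (Hspa1a, Hspa1b and Dnajb1) and for 4 in WT control libraries (Hspa1a, Hspa1b, Hspa2 and Hspa14). Dnaja1, another J-domain partner of HSP70, had 47.49, 32.63, 39.66 and 60.88 CPM in R502W mavacamten, 51.93 to 55.05 CPM in R502W control and 40.46 to 56.4 CPM in WT control libraries. These differences in spread were not tested.

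Treated R502W hearts were also set against WT control hearts, a comparison in which genotype and drug both differ. In R502W mavacamten hearts 6 of the 45 members (13.3%) were higher than in WT control hearts and none lower, where 8.21% of all genes were called, 5.93% higher and 2.29% lower. The treated libraries lay all above WT for 5 members and all below for 1, against 8.54% and 3.79% of all genes. The median log2 fold change was 0.08, beside 0.00 over all genes, and 15 members passed an unadjusted p of 0.05, against 25.8% of all genes. The 6 were Hsph1 (0.43 ± 0.10, edgeR adjusted p = 0.025), Hspa1l (0.67 ± 0.16, adjusted p = 0.025), Hspa4 (0.34 ± 0.08, adjusted p = 0.0254), Hspb6 (0.40 ± 0.11, adjusted p = 0.0423), Hspb7 (0.35 ± 0.10, adjusted p = 0.0454) and Hspa4l (0.44 ± 0.13, adjusted p = 0.0456), as log2 fold changes ± SE. All 6 are among the 12 of the genotype comparison, with which this one shares the WT control libraries. Hsp90aa1 missed the threshold at 0.42 ± 0.13 (edgeR adjusted p = 0.0672), while DESeq2 called 8 members higher, the 6 with Hsp90aa1 and Hsp90ab1. By edgeR Dnaja4 was at 0.12 ± 0.09 (adjusted p = 0.434).

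These 6 calls were less secure than those of the genotype comparison. In the 13 fits without 1 library between 0 and 5 members were called higher. None was called without R502W mavacamten replicate 1 or 2, and 1 was called without R502W mavacamten replicate 3. Without R502W control replicate 2 or WT control replicate 3 there were 2, and without R502W control replicate 1 or 3, or R502W mavacamten replicate 4, there were 3 or 4. There was none in the fit without the 5 libraries high in fat markers or low in Bmp10, nor in that without replicate 4 of each group. The log2 fold change of Hsph1 was 0.30 to 0.46 over these 13 fits, that of Hspa1l 0.53 to 0.76, that of Hspa4 0.28 to 0.38, that of Hspa4l 0.31 to 0.49, that of Hspb6 0.31 to 0.46 and that of Hspb7 0.29 to 0.39. With the trend of fold change on transcript length removed, Hspa1l, Hspb6 and Hspb7 remained and Hspb1 was added, and Hsph1 was 0.30, Hspa4 0.29 and Hspa4l 0.19.

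A further 83 genes of the chaperone system were read from lists of related genes, and 15 were higher and 1 lower in R502W control than in WT control hearts by edgeR (19.3% called, against 12.4% of all genes). Their median log2 fold change was 0.00, beside -0.01 over all genes. Bag3, which pairs with HSP70 and Hspb8 in chaperone-assisted autophagy, had 236.9, 239.1, 267.5 and 201.3 CPM in R502W mavacamten, 223.2, 212.4, 282.1 and 247.3 CPM in R502W control, and 207.4, 171.4, 168.9, 180.9 and 209.2 CPM in WT control libraries. Its R502W control libraries were all above its WT libraries, the lowest by a small margin, and the log2 fold change was 0.36 ± 0.11 (edgeR adjusted p = 0.0425). Bag3 and Grpel2, the exchange factor of the mitochondrial HSP70 (0.38 ± 0.10), were the 2 called of 9 exchange factors and BAG co-chaperones. Of the other J-domain genes 6 were higher, led by Dnajb14 (0.47 ± 0.10), Dnajc27 (0.44 ± 0.09), Dnajc11 (0.41 ± 0.09) and Dnajc13 (0.44 ± 0.10). Of the heat-induced genes outside the families, the collagen prolyl hydroxylase gene P4ha1 (0.77 ± 0.11) and the collagen chaperone gene Serpinh1 (0.66 ± 0.10) were among those higher. In the list of mitochondrial proteases, import factors and related genes, 3 were higher. They were the protease gene Afg3l2 (0.36 ± 0.08), the transcription factor gene Atf5 (0.42 ± 0.11) and the transporter gene Abcb10 (0.38 ± 0.11). Of the HSP90 co-chaperones Ppid was higher (0.25 ± 0.07). The prefoldin subunit gene Pfdn5, whose product hands actin and tubulin to TRiC, was the one that was lower: 54.58, 59.34, 57.93 and 51.64 CPM in R502W mavacamten, 50.3, 56.64, 50.52 and 56.86 CPM in R502W control, and 78.6, 96.25, 72.43, 76.6 and 68.7 CPM in WT control libraries. Every R502W library was below every WT library for it, and in R502W control against WT control it fell by 0.55 ± 0.10 on the log2 scale (edgeR adjusted p = 0.00334).

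For the same 83 genes, mavacamten against control within R502W hearts gave 0 calls by edgeR and 5 genes at an unadjusted p under 0.05, where 3.5% of all genes passed it. Of the 5, Grpel2, Atf5, P4ha1 and Serpinh1 had negative log2 fold changes of -0.39 to -0.31 and Clpx a positive one of 0.26. In R502W mavacamten against WT control hearts, Dnajb14 (0.56 ± 0.10), Dnajc13 (0.45 ± 0.10) and P4ha1 (0.45 ± 0.11) were higher, and Pfdn5 (-0.49 ± 0.10) and the polyubiquitin gene Ubb (-0.35 ± 0.10) were lower. These calls are 6.02% of the 83 genes, against 8.21% of all genes.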

How the data were processed

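The deposited table holds RSEM expected counts per Ensembl gene for 13 whole-heart libraries, made by the authors. Besides RSEM, the submitters' processing notes name cutadapt, FastQC, DESeq2 and the build GRCm38, and the labels' protocols describe poly(A)-selected, strand-specific libraries. Neither the strand setting of the counting nor the aligner is given in the sources used here. Totals ran from 15350622 to 19361103 per library, which sets the precision of low genes, and the lowest count of a member was 46 (Hspa1a).

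Members and lists were chosen with earlier results of these data known. Columns were assigned to samples through the library names in the labels, and groups follow genotype and treatment. Within groups, 22 pairs of libraries differed by 7.31 to 103 chi-square per degree of freedom, so no library was taken as a repeat of another.

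Expected counts were rounded and fitted in R 4.3.3 with edgeR 4.0.16: filterByExpr (minimum count 10, minimum total 15) kept 15000 genes, TMM factors scaled the libraries, and 1 quasi-likelihood fit of all 13 libraries gave the 3 comparisons, with Benjamini-Hochberg adjustment over all genes and a threshold of 0.05. The biological coefficient of variation was 0.232. Fold changes are edgeR's log2 estimates ± SE. CPM are on TMM-scaled library sizes, and TPM used exonic lengths of GENCODE M21. Promoter sequences are from RefSeq (GRCm38.p6) and were used as a description. The fit was first tested on simulated data whose changes were known.

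Every member called in a comparison, and Hspa1a, Hspa1b, Hspb1, Cryab, Hspa8, Hsp90ab1, Hspd1 and Hsf1, are given per library; of the other lists up to 4 called genes each with the smallest adjusted p are named. A gene that this rule names is not reported here. Dnajb1, Dnaja1, Clpx, Chordc1, Atf3, Jun and Per1 were named after their values were seen. Alternatives were RLE factors, no low-count filter, DESeq2 1.42.0, fits of the compared groups only, removal of a trend with transcript length (lowess, span 0.3), a replicate block and leaving out each library, plus both sets of libraries left out that were chosen after the data were seen.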

Additional observations from a re-analysis of the deposited data

Results flagged for a closer look

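Within the 135 sets of a member gene in a group, 15 had a highest or lowest library whose gap to the nearest other library exceeded the 95% limit for a single odd value, where chance gives about 1 in 20 sets. Hspa1a and Hspa1b account for 6, all in replicate 4: Hspa1a was at 41.53 CPM in R502W mavacamten, 23.62 CPM in R502W control and 13.17 CPM in WT control, and Hspa1b at 36.34, 18.07 and 14.48 CPM in these groups. The shared number does not mark a shared animal or batch in the labels. Per1, a clock gene that stress also induces, was highest in replicate 4 as well, at 42.07 CPM in R502W mavacamten, 44.64 CPM in R502W control and 88.56 CPM in WT control, as were Atf3 and Jun. Fos, Fosb, Junb, Egr1, Ier2 and Zfp36 instead peaked in replicate 1 of both R502W groups.

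Among R502W mavacamten libraries, Hsph1 was high in replicate 1 (53.35 CPM, others 40.5 to 42.42), Dnajb2 was high in replicate 3 (76.69 CPM, others 63.75 to 65.06), Hspb3 was low in replicate 1 (4.05 CPM, others 6.18 to 6.30) and Cryab was low in replicate 4 (778.4 CPM, others 956.8 to 972.1). In R502W control, Hspa4l was low in replicate 4 (60.23 CPM, others 79.33 to 81.31), while Hspa8 (1455 CPM, others 1340 to 1359) and Stip1 (92.33 CPM, others 82.98 to 84.39) were high in replicate 3. In WT control replicate 2, which also held the thymus, fat and lung genes, Hspb1 (158.9 CPM, others 117.1 to 127.5) and Cct2 (115.1 CPM, others 93.86 to 97.96) were high. The part of these tissues in those values was not tested.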

How the results depend on the processing

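No direction of a called member turned round under any alternative. In R502W control against WT control, 12 members were higher. There were 7 with a replicate block, 7 without the 5 libraries high in fat markers or low in Bmp10, 4 without replicate 4 of each group, 10 with no low-count filter (Hsp90ab1 and Dnajb2 lost), 13 by DESeq2 and 8 to 13 without 1 library. None was lower, against 2 by DESeq2, 1 (Dnajb1) without replicate 4 of each group and 0 to 1 without 1 library. Of all genes, 1856 were called, with 963 under the block, 1161 without the 5, 995 without replicate 4 and 866 to 1870 without 1 library. In R502W mavacamten against R502W control, the 0 of all genes became 6 by DESeq2 and 1 without replicate 4, and 0 to 0 members were called without 1 library. In R502W mavacamten against WT control, the 6 members became 3 with RLE factors, 2 with no low-count filter, 0 in the fit of 2 groups only, 0 with the block, 0 without the 5, 0 without replicate 4 and 0 to 5 without 1 library; DESeq2 called 8 higher, the 6 with Hsp90aa1 and Hsp90ab1, and 2 lower (Cct5 and Tcp1). The 1232 genes became 740 with no filter, 216 in the fit of 2 groups, 627 with the length trend removed, 349 with the block, 258 without the 5, 278 without replicate 4 and 359 to 1213 without 1 library. Fits without libraries have fewer samples; other causes were not tested. Deviations of same-numbered libraries from their group means correlated at -0.32 to 0.25 over all genes tested. These correlations also carry the other-tissue genes of single libraries. They cannot decide whether a number stands for a shared order or batch, which the labels do not say. Replicate 4 was highest in each group for Hspa1a and Hspa1b. The block's calls describe a shared number only. The log2 fold change ranked with exonic length at 0.34, -0.02 and 0.36 over 14990 genes in R502W control against WT control, R502W mavacamten against R502W control, and R502W mavacamten against WT control, and the members' medians of 0.18, -0.09 and 0.08 became 0.17, -0.08 and 0.12 with that trend removed. Median SEs of 0.10 to 0.11 limit what changes can be seen, and members with overlapping genes or copies have uncertain separate values.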
